A study of Mus musculus with 24 samples.

Results

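The knockout effect of Thumpd1 in testes was set against its effect in cerebellum, gene by gene, in a whole-body knockout mouse. For each gene the change between knockout (KO) and wild-type (WT) cerebellum was subtracted from the change between KO and WT testes, so that a positive difference means a change that was more positive in testes. The comparison used 16 of the 24 libraries of the series, 4 for each genotype and tissue. Numbers 1 to 4 mark WT and 5 to 8 mark KO. Of 55450 genes in the table, 13753 reached 1 CPM (counts scaled to a common library total) in at least 4 of the 8 libraries of each tissue and were tested. The mice were C57BL/6N, 6 to 12 weeks old and of either sex, were backcrossed to C57/BL6, and lived under 12 h of light and 12 h of dark. KO animals carried a disruption of Thumpd1 in every cell, made with Cas9 and 2 guides aimed at exons 1 and 4, and the controls were littermates of the same age. Which of the edited lines gave these libraries is not given in the sources used here. The legends of the study call the libraries of a group biological replicates, and the labels name no animal for any of them. The p-values measure the spread between these libraries.

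THUMPD1 is a tRNA-binding adaptor protein. With its help the enzyme NAT10 acts on tRNAs for serine and leucine and makes N4-acetylcytidine, a modified base that steadies the folded tRNA. When tRNAs are uncharged or ribosomes stall, the kinase GCN2 phosphorylates the initiation factor eIF2, which slows protein synthesis in general while favouring translation of the transcription factor ATF4. ATF4 targets include amino acid synthesis enzymes, amino acid carriers and the aminoacyl-tRNA synthetases, and the program is called the integrated stress response (ISR). The testis is largely made of germ cells at successive stages of spermatogenesis beside Sertoli and Leydig cells, whereas the cerebellum is dominated by granule neurons.

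Thumpd1, which lies on chromosome 7 at 119715093 to 119720798 (mm10, minus strand), fell in both tissues, by more in cerebellum. Its expected counts were 504, 539, 406 and 471 in WT cerebellum and 2, 1, 1 and 0 in KO cerebellum. In testes they were 781, 846, 740 and 808 in WT and 24, 31, 41 and 23 in KO. Summed over libraries, WT exceeded KO 406-fold in cerebellum (95% exact interval 158 to 1493, counting error only) and 26.3-fold in testes (21.9 to 31.8). The KO testes thus kept a low level of transcript in every library, and the groups were far apart in both tissues. The fitted log2 changes were -8.31 ± 0.26 (SE, adjusted p = 2.22e-13) in cerebellum and -4.83 ± 0.22 (SE, adjusted p = 1.16e-10) in testes, a difference of 3.47 ± 0.34 (SE, adjusted p = 2.26e-05). Nat10, the acetyltransferase that THUMPD1 guides, had log2 changes of 0.13 ± 0.05 (SE, adjusted p = 0.183) in cerebellum and -0.02 ± 0.04 (SE, adjusted p = 0.741) in testes, and its difference of -0.15 ± 0.06 (SE, adjusted p = 0.111) did not pass.

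Total counts ranged from 16353797 to 24728845 in cerebellum and from 27273231 to 36621604 in testes. Summed CPM of defining markers was checked against the tissue labels: 17 elongating spermatid genes stayed at or below 1.30 in every cerebellum library and ran from 12560 to 17850 in testes, and 12 granule neuron genes ran from 6858 to 7609 in cerebellum and from 37.3 to 44.7 in testes. Within testes some marker sums separated the genotypes and others did not. Sertoli cell markers summed to 1652 to 1900 in WT and 2161 to 2991 in KO, with 22 of 22 members higher in KO. Elongating spermatid markers fell short of WT (17060 to 17850) in every KO library (12560 to 15620), with 0 of 17 members higher, and round spermatid markers ran from 2963 to 3019 in WT and 2417 to 2858 in KO. Sums in KO were also below all WT sums for spermatogonia (WT 790.0 to 816.5, KO 745.1 to 772.1), peritubular cells (WT 312.0 to 324.2, KO 276.9 to 300.5) and macrophages (WT 252.5 to 257.1, KO 221.0 to 247.2). Most members of these 3 lists were nonetheless higher in KO (13 of 17, 4 of 6 and 13 of 17), so the lower sums rest on the other members. The genotypes overlapped for Leydig cells (WT 1157 to 1258, KO 1057 to 1705, exact permutation p = 1.0) and spermatocytes (WT 1829 to 2014, KO 1919 to 2107, exact permutation p = 0.229). The exact two-sided permutation p of each of the 6 sums without overlap was 0.0286, the smallest that 4 against 4 allows, and 0.0694 after adjustment over 34 tests. In bulk tissue, fewer cells of a type and less RNA per cell cannot be told apart. In cerebellum the choroid plexus markers split the groups from within, at 1125, 1144, 17.0 and 17.1 in WT and 19.7, 20.2, 381.1 and 379.0 in KO. Endothelial markers (WT 191.0 to 197.1, KO 206.7 to 226.5, 8 of 8 members higher) and blood markers (WT 7.76 to 8.67, KO 3.74 to 7.01, 0 of 5 higher) separated the genotypes in cerebellum without overlap, each with the same exact and adjusted permutation p as above. Their part in the cerebellum changes was not tested. Each cerebellum library was closest to its neighbour in number (1 with 2, 3 with 4, 5 with 6, 7 with 8), as were 6 of 8 testes libraries, although no pair agreed within sampling noise. Testes KO 7 and KO 8 stood farther from the WT mean than KO 5 and KO 6, with a root mean square log2 distance over the tested genes of 0.3795 and 0.3558 against 0.2834 and 0.3003. WT libraries lay 0.1879 to 0.2718 from the mean of the other WT libraries. Counts are therefore given also without the 4 cerebellum libraries that held choroid plexus RNA, without testes KO 7 and KO 8, and with neighbouring libraries summed.

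The knockout effect differed between the tissues for 2676 of 13753 genes (19.5%) at an adjusted p under 0.05 in limma. The difference was positive for 1461 genes (10.6%) and negative for 1215 (8.83%). Within tissues, 2323 genes rose (16.9%) and 2552 fell (18.6%) in KO testes, against 213 that rose (1.55%) and 154 that fell (1.12%) in KO cerebellum. Among the 2676 genes, 2115 had an effect that passed in testes alone and 145 in cerebellum alone. A further 323 passed in neither tissue by itself, of which 322 had estimates of opposite sign. Passing in both tissues were 86 genes with opposite effects (0.625% of the genes tested) and 7 with effects in the same direction. Of 137 genes called in both tissues in all, 51 moved the same way. The median size of the difference over all tested genes was 0.19 on the log2 scale, and 144 genes reached 1.

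**Figure D1:**
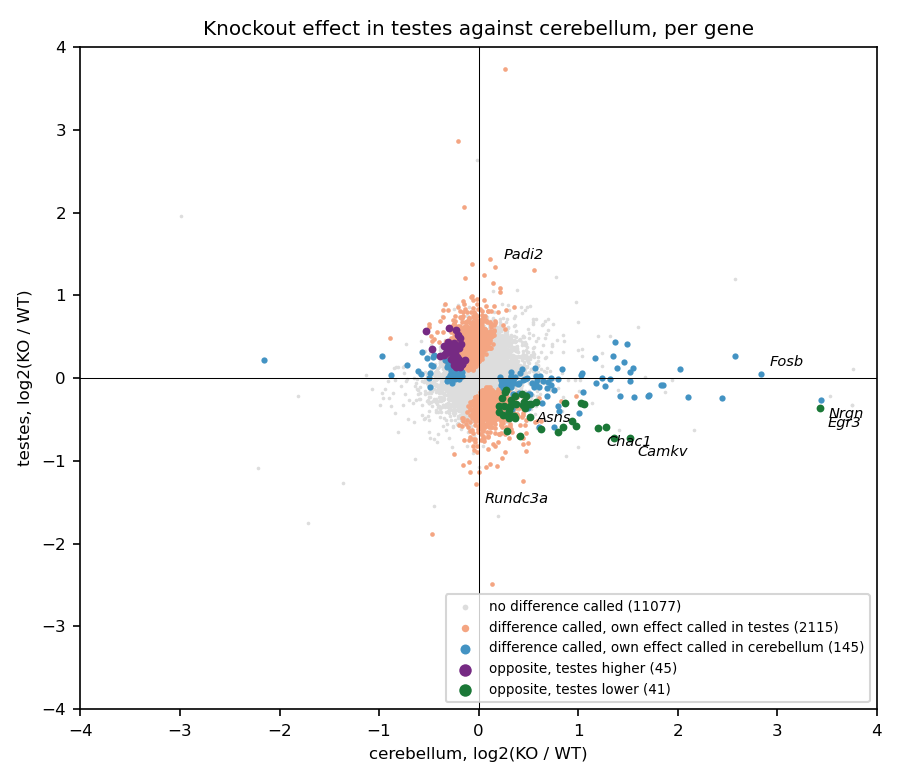
Each point is a gene, with its log2 change between KO and WT cerebellum on the horizontal axis and between KO and WT testes on the vertical axis, coloured by the kind of difference between the tissues. Not drawn are the 323 differing genes that passed in neither tissue and the genes with effects in the same direction, Thumpd1 among them. Of the kinds drawn, 2 genes lie beyond the axes, and the genes with opposite effects fill the upper left (45 genes) and the lower right (41 genes).

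These counts depended on which libraries were used and how they were fitted. Without the 4 cerebellum libraries that held choroid plexus RNA, 756 genes differed and 22 had opposite effects, 11 of them among the 86. Without testes KO 7 and KO 8 the counts were 2706 and 191, with 54 of the 191 among the 86. With neighbouring libraries summed, which leaves 2 values per group, 132 genes passed in limma (3035 at an unadjusted p under 0.05, and 284 adjusted in edgeR), all of them among the 2676, and 0 genes had opposite effects (301 unadjusted, and 1 in edgeR). The balance of positive against negative differences also moved with the scaling alone, from 1461 against 1215 with TMM factors to 1179 against 1478 with RLE size factors and 1885 against 910 when TMM factors came from all genes expressed in each tissue. It was 1394 against 1754 in DESeq2, which has another model as well, and 832 against 1034 in a fit of all 24 libraries. The TMM factors from all genes of a tissue moved the median difference of all genes to 0.07. The balance also turned without testes WT 2 (970 against 1287), after trends with GC content and length were removed (1316 against 1458) and with neighbouring libraries summed (54 against 78). Among the 93 named genes whose difference passed, 0 changed the sign of the difference wherever it was tested under 31 alternatives, and 26 still passed with neighbouring libraries summed. These genes were picked because they passed in the same libraries, so a kept sign is a description and not separate support. The 26 include Thumpd1, Egr3 and Fosb, which were tested through 1 genotype alone.

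Of the 86 genes with opposite effects, 41 rose in KO cerebellum and fell in KO testes. Their median log2 changes were 0.45 and -0.36. In 33 of the 41, the genotypes were free of overlap in both tissues, as for 568 of all 13753 tested genes (4.13%). Single-tissue shares over all genes were 14.3% in cerebellum and 27.4% in testes. The 41 were called in both tissues on these same libraries, which favours groups without overlap, so the 33 are no added evidence. Apart from pathway list members and genes fixed beforehand, the naming rule required no overlap in a tissue whose effect passed, so remarks on overlap restate that condition. Among the 41, the most negative difference was that of Egr3. This gene, a zinc-finger transcription factor induced by neuronal activity and growth factors, stood in cerebellum at 0.363, 0.638, 0.458 and 0.483 in WT and 7.08, 7.67, 3.88 and 4.11 in KO (CPM). Its testes values were 55.3, 55.2, 51.0 and 52.1 in WT and 41.9, 45.2, 32.9 and 48.7 in KO. Each KO cerebellum library was several times above WT, with KO 5 and KO 6 over KO 7 and KO 8, and every KO testes library was below every WT one. The log2 change was 3.43 ± 0.34 (SE, adjusted p = 1.17e-05) in cerebellum and -0.37 ± 0.11 (SE, adjusted p = 0.0136) in testes, a difference of -3.795 ± 0.36 (SE, adjusted p = 1.99e-05). Egr3 was under 1 CPM of the library total in every WT cerebellum library, so it was tested only because it was high in KO, and a difference in cerebellum was built into its selection. The same holds for Fosb and Lhx9 in cerebellum, for Slitrk5 in testes and, through WT, for Thumpd1. Their p-values are descriptions. Without the filter the log2 differences of Egr3, Fosb, Lhx9 and Slitrk5 were -3.73, -2.70, -2.24 and 0.95.

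Camkv, a catalytically inactive relative of the calmodulin kinases found on neuronal vesicles, stood in cerebellum at 3.13, 3.15, 3.09 and 2.31 in WT and 11.7, 10.6, 7.07 and 5.81 in KO. In testes it was at 9.79, 10.1, 9.02 and 10.9 in WT and 5.696, 5.66, 5.61 and 7.35 in KO. KO was above WT throughout cerebellum and below it throughout testes, with log2 changes of 1.52 ± 0.21 (SE, adjusted p = 0.000302) and -0.72 ± 0.16 (SE, adjusted p = 0.00227) and a difference of -2.24 ± 0.26 (SE, adjusted p = 7.23e-05). Kcnip2, a calcium-binding subunit of A-type potassium channels named after its values were seen, had the same form. Its CPM in cerebellum was 1.497, 1.32, 1.72 and 1.395 in WT and 4.801, 5.597, 2.97 and 2.74 in KO. In testes the values were 19.2, 18.4, 19.0 and 18.6 in WT and 12.2, 11.98, 9.503 and 12.5 in KO, and the difference came to -2.08 ± 0.25 (SE, adjusted p = 8.26e-05).

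Necab3, an EF-hand calcium-binding protein, rose in KO cerebellum with little spread. Its values there were 11.8, 12.04, 11.1 and 11.5 in WT and 24.2, 22.1, 24.98 and 23.6 in KO, and in testes 26.5, 22.1, 22.9 and 22.6 in WT and 20.5, 20.7, 15.6 and 20.4 in KO. All KO testes libraries were below the WT ones, KO 7 by the widest margin. The difference was -1.33 ± 0.13 (SE, adjusted p = 2.27e-05). Rasal1, which stimulates the GTPase activity of Ras, was at 11.3, 12.9, 12.9 and 12.6 in WT and 24.2, 18.9, 25.1 and 22.7 in KO in cerebellum. In testes it was at 13.9, 12.9, 13.2 and 13.3 in WT and 10.4, 10.9, 11.6 and 10.3 in KO. Neither tissue showed overlap of the groups, and the difference was -1.17 ± 0.12 (SE, adjusted p = 2.99e-05). Ncan encodes neurocan, a chondroitin sulfate proteoglycan of the brain matrix. It stood at 29.9, 33.4, 29.7 and 28.8 in WT and 47.6, 44.5, 47.9 and 41.8 in KO in cerebellum and at 32.4, 36.1, 36.6 and 38.5 in WT and 28.6, 29.4, 28.3 and 31.5 in KO in testes, again without overlap, with a difference of -0.86 ± 0.09 (SE, adjusted p = 3.66e-05). Also in this group, Tekt5, a tektin of the sperm tail that was low in cerebellum, had log2 changes of 0.85 ± 0.22 (SE, adjusted p = 0.0428) there and -0.59 ± 0.06 (SE, adjusted p = 6.07e-06) in testes. Arc, an activity-induced gene of the synapse, had log2 changes of 0.37 ± 0.08 (SE, adjusted p = 0.0232) in cerebellum and -0.22 ± 0.05 (SE, adjusted p = 0.00303) in testes.

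The other 45 genes fell in KO cerebellum and rose in KO testes, with median log2 changes of -0.24 and 0.30. For 26 of the 45, the genotypes were free of overlap in each tissue, beside the 4.13% of all tested genes. These 45 too were called in both tissues on the same libraries, so the 26 are no added evidence. Shifts in this direction were smaller: 1 of the 45 differences reached 1 in size, against 14 of the 41 above. Utrn encodes utrophin, a large homologue of dystrophin that links actin to the membrane. Its CPM was 228, 226, 224 and 227 in WT and 192, 193, 189 and 180.2 in KO in cerebellum. In testes it was 93.7, 93.9, 86.5 and 89.5 in WT and 109, 109.7, 119.8 and 119 in KO. The libraries of each group lay close together and the groups were well apart in opposite order, with log2 changes of -0.26 ± 0.04 (SE, adjusted p = 0.00137) in cerebellum and 0.33 ± 0.04 (SE, adjusted p = 5.26e-05) in testes and a difference of 0.60 ± 0.06 (SE, adjusted p = 2.73e-05).

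Twsg1, a secreted modulator of BMP signalling, stood at 58.9, 59.2, 57.1 and 57.8 in WT and 47.2, 49.05, 47.3 and 52.1 in KO in cerebellum. In testes its values were 24.4, 23.6, 25.2 and 24.02 in WT and 30.2, 29.2, 33.9 and 30.5 in KO. KO lay below WT in the first tissue and above it in the second, a difference of 0.61 ± 0.08 (SE, adjusted p = 9.74e-05). Dusp16, a phosphatase that switches off the kinases JNK and p38, was at 67.05, 62.95, 63.5 and 64.5 in WT and 52.5, 56.5, 53.3 and 50.5 in KO in cerebellum and at 44.9, 48.3, 49.5 and 46.7 in WT and 55.5, 53.8, 57.05 and 54.6 in KO in testes, with no overlap and a difference of 0.51 ± 0.07 (SE, adjusted p = 0.000162). Top2b, a DNA topoisomerase of non-dividing cells whose exons overlap Rarb on the other strand, differed by 0.54 ± 0.08 (SE, adjusted p = 0.000288). Its values were 204, 196, 189.5 and 204 in WT and 157, 180.1, 158 and 177 in KO in cerebellum and 66.2, 61.6, 57.1 and 62.03 in WT and 76.9, 73.3, 79.4 and 73.6 in KO in testes. Rlim, an X-linked ubiquitin ligase, differed by 0.43 ± 0.06 (SE, adjusted p = 0.000345), with 119, 112, 118 and 118 in WT and 98.02, 105, 96.4 and 106 in KO in cerebellum and 112, 102, 104 and 108 in WT and 127, 126, 126 and 119 in KO in testes. For both genes the KO libraries kept to a single side of WT in each tissue. Over 31 alternatives the difference ran from 0.32 to 0.62 for Top2b and from 0.21 to 0.51 for Rlim.

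**Figure D2:**
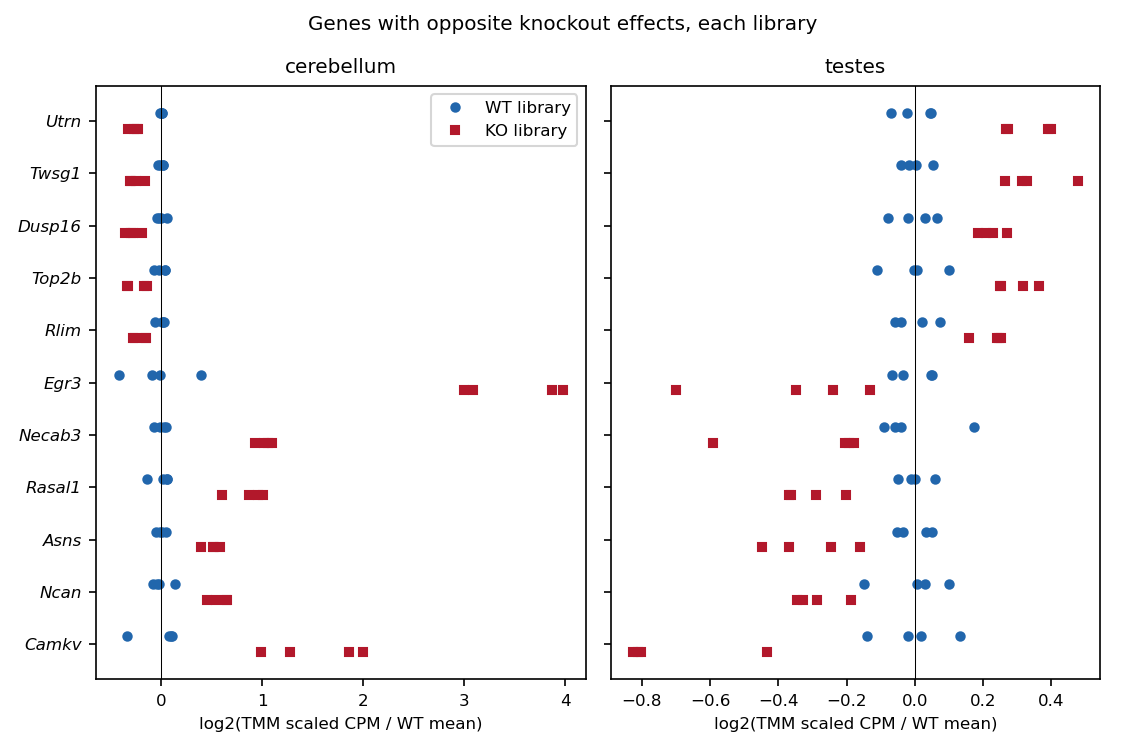
Each mark is 1 library, placed by its log2 ratio of TMM scaled CPM to the WT mean of its tissue, for 11 genes with opposite effects in cerebellum (left) and testes (right), with a different horizontal scale in each panel. The KO libraries of every gene lie on a single side of all WT libraries in cerebellum and on the reverse side in testes. Except for Asns and Egr3, this was a condition for naming the gene.

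The ISR list held more genes called in opposite directions than any other of the 19 pathway lists. Of 42 listed genes 27 were tested, and 9 rose and 0 fell in KO cerebellum, where 1.55% of all genes rose. In KO testes 4 rose (14.8%) and 5 fell (18.5%), near the 16.9% and 18.6% of all genes. The difference was negative for 8 (29.6%, against 8.83%) and positive for 1 (3.70%, against 10.6%). In opposite directions 4 genes were called (Asns, Chac1, Psph and Ddit3), as were 0.625% of all genes. With neighbouring libraries summed, 3 of the 27 differences passed. The list's median log2 change was 0.27 in cerebellum, 0.10 in testes and -0.16 for the difference, beside -0.00, 0.01 and 0.02 over all tested genes. Over 31 alternatives the median difference ran from -0.34 to -0.07. The promoters of 2 genes called in opposite directions and of 1 synthetase that rose in cerebellum are printed to show where the ISR motif lies. Each runs from 250 bases before to 50 after the RefSeq start (GRCm38.p6), 5′ to 3′ on the gene's strand, with TGATGNAA, or the same motif on the other strand, in capitals. Asns lies at chr6:7693160-7693459 (minus strand) with the first base of the motif 23 bases before the start, Chac1 at chr2:119350992-119351291 (plus strand) with the motif 193 bases before, and Aars at chr8:111033592-111033891 (plus strand) with motifs 112 bases before and 9 after.
Asns: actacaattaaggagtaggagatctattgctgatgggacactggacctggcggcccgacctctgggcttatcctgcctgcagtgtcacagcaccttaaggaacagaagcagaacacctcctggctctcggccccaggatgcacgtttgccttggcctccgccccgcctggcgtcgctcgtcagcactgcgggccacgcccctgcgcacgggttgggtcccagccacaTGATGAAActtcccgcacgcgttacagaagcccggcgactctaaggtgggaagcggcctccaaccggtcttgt
Chac1: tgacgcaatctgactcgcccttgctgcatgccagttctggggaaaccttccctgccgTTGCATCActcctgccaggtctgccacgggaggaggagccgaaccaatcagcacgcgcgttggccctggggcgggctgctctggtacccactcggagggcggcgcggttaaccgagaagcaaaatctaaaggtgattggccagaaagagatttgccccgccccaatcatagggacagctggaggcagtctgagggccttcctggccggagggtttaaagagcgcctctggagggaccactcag
Aars: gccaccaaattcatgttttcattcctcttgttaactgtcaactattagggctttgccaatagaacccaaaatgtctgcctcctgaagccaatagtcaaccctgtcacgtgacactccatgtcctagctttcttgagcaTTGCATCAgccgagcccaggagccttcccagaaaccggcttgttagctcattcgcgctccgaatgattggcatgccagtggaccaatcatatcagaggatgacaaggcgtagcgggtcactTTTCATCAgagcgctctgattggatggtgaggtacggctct
Counting both strands, the motif was found in 10 of 38 ISR and synthetase genes with a promoter in the table (26.3%), in 5 of 13 of those that rose in cerebellum (38.5%), in 5 of the 25 that did not, in 5 of 11 whose difference was negative (45.5%) and in 248 of 9861 tested genes (2.51%). The promoter windows of Psph and Ddit3, the other 2 ISR genes called in opposite directions, and those of Atf4, Atf5 and Mthfd2 held no match. A match is a description of these letters and not a binding site.

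Asns encodes asparagine synthetase and is a textbook ATF4 target. It stood at 36.3, 35.3, 34.8 and 33.8 in WT and 45.96, 50.4, 50.02 and 52.7 in KO in cerebellum. In testes, where the gene was more abundant, it was at 151, 153, 160.1 and 162 in WT and 132, 140.0, 115 and 121 in KO. Every KO library was above WT in cerebellum and below WT in testes, with log2 changes of 0.50 ± 0.07 (SE, adjusted p = 0.00038) and -0.31 ± 0.05 (SE, adjusted p = 0.000433) and a difference of -0.81 ± 0.09 (SE, adjusted p = 3.34e-05). Chac1, an enzyme that degrades glutathione, was at 2.904, 2.89, 3.604 and 3.59 in WT and 6.91, 6.35, 8.09 and 8.28 in KO in cerebellum and at 1.49, 1.95, 1.995 and 1.66 in WT and 0.984, 1.45, 1.32 and 0.935 in KO in testes. The groups did not overlap in either tissue, and the difference was -1.80 ± 0.23 (SE, adjusted p = 9.96e-05). Psph makes the last step of serine synthesis and Ddit3 encodes CHOP, a transcription factor of the late stress response. Both were named after their values were seen. Psph had log2 changes of 0.37 ± 0.09 (SE, adjusted p = 0.0364) in cerebellum and -0.31 ± 0.07 (SE, adjusted p = 0.00426) in testes. Ddit3 had log2 changes of 0.48 ± 0.12 (SE, adjusted p = 0.0432) in cerebellum and -0.22 ± 0.07 (SE, adjusted p = 0.026) in testes, and its exons overlap Mars on the other strand.

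Other members rose in cerebellum without a change that passed in testes. Atf4 itself was at 83.3, 81.9, 75.8 and 78.1 in WT and 103, 96.9, 101 and 96.8 in KO in cerebellum and at 48.6, 49.7, 49.7 and 47.9 in WT and 50.2, 48.5, 49.5 and 43.7 in KO in testes. Its groups were apart in the first tissue and overlapped in the second, with log2 changes of 0.32 ± 0.05 (SE, adjusted p = 0.000848) and -0.03 ± 0.05 (SE, adjusted p = 0.681) and a difference of -0.35 ± 0.07 (SE, adjusted p = 0.00295). Atf5, a related factor that is translated under stress, had log2 changes of 0.84 ± 0.07 (SE, adjusted p = 7.85e-07) in cerebellum and 0.11 ± 0.06 (SE, adjusted p = 0.156) in testes. Its exons overlap Il4i1 and Nup62 on the other strand. Mthfd2, an enzyme of mitochondrial folate metabolism, was also named after its values were seen. It had log2 changes of 0.73 ± 0.11 (SE, adjusted p = 0.000718) in cerebellum and 0.00 ± 0.06 (SE, adjusted p = 0.984) in testes. Of the other genes named that way, Herpud1, a gene of endoplasmic reticulum stress, had log2 changes of 0.13 ± 0.08 (SE, adjusted p = 0.451) in cerebellum and -0.39 ± 0.06 (SE, adjusted p = 0.000151) in testes. Slc38a2, a carrier of neutral amino acids, was the 1 member with a positive difference, at 0.37 ± 0.08 (SE, adjusted p = 0.00622). Without the 4 cerebellum libraries that held choroid plexus RNA the list's median difference was -0.19, and Asns, Chac1 and Atf5 were among the genes that still passed with neighbouring libraries summed.

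Aminoacyl-tRNA synthetases load amino acids onto tRNAs and several are ATF4 targets. Of 20 tested, 7 rose (35.0%, against 1.55% of all genes) and 0 fell in KO cerebellum. In KO testes 3 rose (15%) and 4 fell (20%), near the 16.9% and 18.6% of all genes. The difference was negative for 6 (Cars, Aars, Wars, Yars, Vars and Sars; 30.0%, against 8.83%) and positive for 0. After summing of neighbouring libraries, 0 of the 20 passed in limma (6 at an unadjusted p under 0.05, and 1 adjusted in edgeR). Median log2 changes were 0.16 in cerebellum, 0.01 in testes and -0.16 for the difference. The alanine enzyme Aars stood at 139, 147, 146 and 145 in WT and 180.2, 175, 194 and 189 in KO in cerebellum. In testes it was at 204, 215, 220.2 and 217 in WT and 210.1, 214, 209.7 and 222 in KO. KO was above WT throughout cerebellum and mixed with it in testes, with a difference of -0.36 ± 0.06 (SE, adjusted p = 0.000797). Cars, for cysteine, had log2 changes of 0.46 ± 0.05 (SE, adjusted p = 4.28e-05) in cerebellum and -0.01 ± 0.05 (SE, adjusted p = 0.921) in testes, a difference of -0.47 ± 0.07 (SE, adjusted p = 0.000498). Wars, for tryptophan, differed by -0.30 ± 0.07 (SE, adjusted p = 0.0071). Vars, for valine, was the exception in form, with 0.02 ± 0.10 (SE, adjusted p = 0.95) in cerebellum and -0.40 ± 0.07 (SE, adjusted p = 0.000325) in testes. Vars, Yars and Sars were named after their values were seen.

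**Figure D3:**
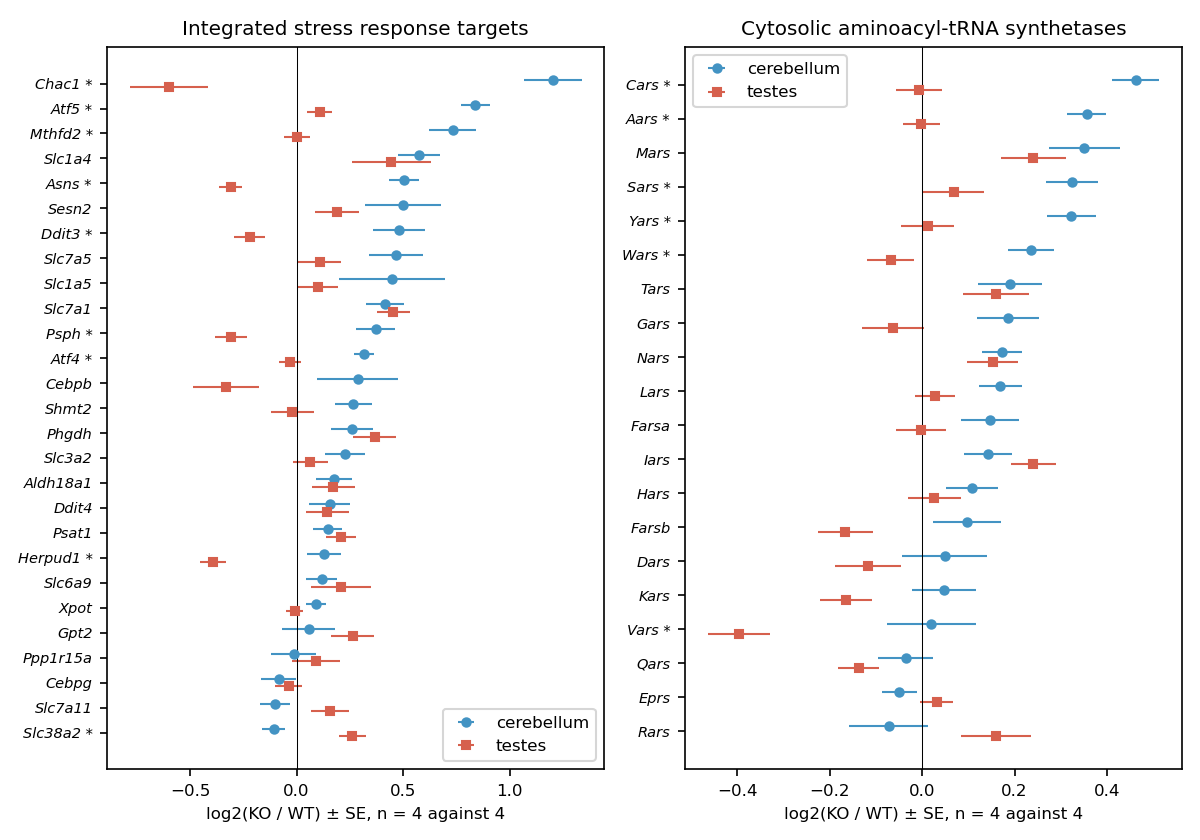
Log2 change between KO and WT in cerebellum and testes, with bars of 1 standard error (n = 4 against 4), for the 27 ISR genes (left) and 20 cytosolic aminoacyl-tRNA synthetases (right) tested. An asterisk marks a gene whose difference between the tissues passed the threshold of 0.05, and among these only Slc38a2 has its cerebellum value to the left of its testes value.

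Among immediate early genes, which respond within minutes to neuronal activity or growth factors, 29 were tested. In cerebellum 4 rose (13.8%, against 1.55% of all genes) and 0 fell. Of these 4, Egr3 and Fosb were tested only because they were high in KO, so this count and those of the differences are descriptions. In testes 7 rose (24.1%, against 16.9%) and 6 fell (20.7%, against 18.6%). The difference was negative for 5 and positive for 2, and Egr3, Fosb and Arc passed with neighbouring libraries summed. Without Egr3 and Fosb, 2 of 27 rose in cerebellum (7.41%, against 1.55% of all genes) and the difference was negative for 3 (11.1%, against 8.83%) and positive for 2 (7.41%, against 10.6%). The list's median difference of -0.19 turned to 0.01 when cerebellum KO 5 was left out. Fosb, a partner of JUN proteins, stood at 0.953, 0.638, 0.343 and 0.590 in WT and 5.86, 6.10, 3.35 and 3.29 in KO in cerebellum and at 3.799, 4.99, 4.62 and 4.27 in WT and 4.098, 4.49, 4.03 and 5.86 in KO in testes. It rose in cerebellum by 2.84 ± 0.29 (SE, adjusted p = 1.91e-05), and the testes change was 0.05 ± 0.19 (SE, adjusted p = 0.875). The KO cerebellum libraries also differed among themselves, with Fos, the archetype of the class, at 31.6 and 26.5 in KO 5 and KO 6 and at 5.21 and 5.11 in KO 7 and KO 8, against 7.30 to 11.5 in WT. Its part in the list's values was not tested.

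Of the genes with an effect in cerebellum and none that passed in testes, 55 had a positive difference and 90 a negative one. Nrgn, which encodes neurogranin, a calmodulin-binding protein of forebrain synapses, rose by the largest amount among the genes that met the naming rule. Its values were 1.91, 1.66, 2.75 and 2.25 in WT and 35.5, 29.3, 19.2 and 13.9 in KO in cerebellum. In testes they were 9.95, 13.3, 10.2 and 11.5 in WT and 10.1, 8.99, 8.63 and 9.86 in KO. All KO cerebellum libraries were several times above WT while the testes groups overlapped, and the difference was -3.70 ± 0.40 (SE, adjusted p = 2.99e-05). Lhx9, a LIM-homeodomain transcription factor, was at 0.953, 0.681, 0.973 and 0.697 in WT and 6.73, 7.92, 3.18 and 3.79 in KO in cerebellum, a log2 change of 2.58 ± 0.33 (SE, adjusted p = 0.000176), and it too was tested only through its KO level. Ndst4, a heparan sulfate modifying enzyme, rose by 2.10 ± 0.30 (SE, adjusted p = 0.000532), and Baiap3, a protein of dense-core vesicle traffic, by 1.83 ± 0.33 (SE, adjusted p = 0.00463). All KO libraries exceeded WT in these 3 genes, KO 5 and KO 6 by more than KO 7 and KO 8. Summed forebrain markers without Nrgn and Enc1 stood in cerebellum at 232.8 to 243.8 CPM in WT and 245.4 to 275.3 in KO. That separation rested on 1 member, the forebrain kinase gene Camk2a, at 70.8 to 77.1 in WT and 92.5 to 107.1 in KO. With Camk2a also taken out of the sum, the genotypes overlapped, and most KO libraries lay below WT. The part of forebrain RNA in these results was not tested.

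Falls that passed in cerebellum and not in testes included that of Xlr3b, an X-linked gene of the XLR family, at 5.31, 4.29, 15.9 and 18.1 in WT and 1.82, 1.53, 2.07 and 2.17 in KO in cerebellum and 2.78, 1.91, 2.20 and 2.67 in WT and 3.01, 2.62, 2.45 and 3.04 in KO in testes. WT libraries spread widely, WT 3 and WT 4 standing above WT 1 and WT 2, but all lay over KO, with a log2 change of -2.15 ± 0.46 (SE, adjusted p = 0.016). Eif2s3y, the Y-linked copy of the gamma subunit of eIF2, was at 53.6, 52.9, 47.9 and 51.9 in WT and 21.3, 22.3, 31.9 and 39.05 in KO in cerebellum and at 47.5, 35.6, 40.2 and 43.8 in WT and 50.4, 45.6, 39.2 and 36.9 in KO in testes. KO fell below WT in cerebellum with no overlap, by -0.88 ± 0.15 (SE, adjusted p = 0.00222), and the testes change was 0.04 ± 0.13 (SE, adjusted p = 0.856). Testes come from males, but the sex behind each cerebellum library is not given here. Its part in the values of this Y-linked gene was not tested. The mitochondrial ribosomal RNA mt-Rnr2 had log2 changes of -0.60 ± 0.15 (SE, adjusted p = 0.0415) in cerebellum and 0.09 ± 0.15 (SE, adjusted p = 0.681) in testes.

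Transcripts encoded by the mitochondrial genome were looked at after their values were seen. Among 37 such genes, 15 were tested, and the difference was positive for 13 (86.7%, against 10.6% of all genes) and negative for 0. In KO testes 6 rose (40%, against 16.9%) and 0 fell, and in KO cerebellum 7 fell (46.7%, against 1.12%) and 0 rose, with median log2 changes of 0.26 and -0.47. The complex I subunit genes mt-Nd5, mt-Nd4 and mt-Nd2 were called in opposite directions, lower in KO cerebellum and higher in KO testes. mt-Nd5 stood at 806, 795, 764 and 930.1 in WT and 671, 772, 596 and 634 in KO in cerebellum. In testes it was at 399, 351, 330.1 and 334 in WT and 489.6, 448, 471 and 443 in KO. The cerebellum groups overlapped, since KO 6 was close to WT, and the testes groups did not. Its difference was 0.70 ± 0.11 (SE, adjusted p = 0.00052), that of mt-Nd4 was 0.62 ± 0.12 (SE, adjusted p = 0.00167) and that of mt-Nd2 was 0.81 ± 0.17 (SE, adjusted p = 0.00332). With neighbouring libraries summed, mt-Nd5 passed and mt-Nd4 and mt-Nd2 did not.

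Most differing genes, 2115 of 2676, had an effect that passed in testes alone, 1150 with a positive and 965 with a negative difference. Rundc3a, a RUN domain protein that binds small GTPases, had a low spread in both tissues. Its values were 48.03, 56.5, 53.9 and 55.2 in WT and 23.4, 25.3, 20.2 and 19.4 in KO in testes. In cerebellum they were 205, 215, 200 and 195 in WT and 201, 183, 217 and 202 in KO. Every KO testes library was far below WT while the cerebellum groups overlapped, with log2 changes of -1.28 ± 0.08 (SE, adjusted p = 3.56e-08) and -0.02 ± 0.06 (SE, adjusted p = 0.888) and a difference of -1.26 ± 0.10 (SE, adjusted p = 4.35e-06). Chst2, a sulfotransferase of sugar chains, stood at 4.91, 5.82, 6.53 and 5.55 in WT and 2.42, 2.67, 2.13 and 3.27 in KO in testes and its change was -1.14 ± 0.13 (SE, adjusted p = 1.64e-05), against -0.08 ± 0.06 (SE, adjusted p = 0.479) in cerebellum. Slc38a1, a glutamine carrier, was at 8.98, 10.5, 9.66 and 9.28 in WT and 3.74, 3.75, 6.799 and 3.45 in KO in testes, where KO 7 was closer to WT than the others. Its changes were -1.13 ± 0.15 (SE, adjusted p = 5.43e-05) and, in cerebellum, 0.00 ± 0.06 (SE, adjusted p = 0.997).

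The largest rises in testes among the genes named by the rule were those of Padi2, Col11a1, Lrrn1 and Kcnk3. Padi2, which converts arginine to citrulline in proteins, stood at 4.58, 6.397, 4.44 and 4.74 in WT and 10.6, 10.7, 15.7 and 13.8 in KO in testes. The change was 1.34 ± 0.15 (SE, adjusted p = 1.33e-05) there and 0.17 ± 0.12 (SE, adjusted p = 0.497) in cerebellum. Lrrn1, a leucine-rich repeat membrane protein, was at 1.82, 2.04, 1.995 and 1.54 in WT and 4.22, 4.12, 4.38 and 4.76 in KO in testes. It was abundant and overlapping in cerebellum, at 133, 136, 146 and 142 in WT and 137, 139, 150.2 and 151 in KO, and the difference was 1.19 ± 0.14 (SE, adjusted p = 8.26e-05). Kcnk3, a leak potassium channel, had log2 changes of 1.15 ± 0.16 (SE, adjusted p = 8.87e-05) in testes and 0.14 ± 0.07 (SE, adjusted p = 0.292) in cerebellum. Col11a1, a fibrillar collagen chain, had log2 changes of 1.31 ± 0.18 (SE, adjusted p = 7.01e-05) in testes and 0.56 ± 0.18 (SE, adjusted p = 0.118) in cerebellum, and its difference of 0.76 ± 0.26 (SE, adjusted p = 0.0452) was lost under 19 of 31 alternatives. These rises stood beside the higher Sertoli marker sums of KO testes given above, and the falls beside the lower spermatid sums. The part of cell makeup in either was not tested.

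In all, 7 genes changed in the same direction in both tissues by unequal amounts. Larger in testes were Slitrk5, Mir124-2hg, Ndn and Bri3bp. Ndn, the imprinted growth suppressor necdin, stood at 86.5, 91.2, 89.4 and 91.4 in WT and 113, 110.3, 122 and 115 in KO in cerebellum and at 4.96, 4.403, 3.58 and 3.84 in WT and 6.31, 7.39, 7.41 and 6.502 in KO in testes. KO was above WT in both, with log2 changes of 0.36 ± 0.05 (SE, adjusted p = 0.00035) and 0.72 ± 0.11 (SE, adjusted p = 0.000141), but the difference of 0.36 ± 0.12 (SE, adjusted p = 0.0422) was lost under 20 of 31 alternatives. Slitrk5, a neuronal membrane protein named after its values were seen, had log2 changes of 0.40 ± 0.07 (SE, adjusted p = 0.00595) in cerebellum and 1.28 ± 0.20 (SE, adjusted p = 0.000188) in testes, where it was tested only through its KO level. Larger in cerebellum were Thumpd1, Enc1 and Ttn. Enc1, an actin-binding kelch protein of the nervous system, was at 7.85, 8.13, 7.72 and 5.90 in WT and 29.7, 28.2, 21.3 and 20.9 in KO in cerebellum and at 37.7, 42.3, 38.9 and 38.4 in WT and 42.8, 43.3, 58.3 and 54.99 in KO in testes. Its groups did not overlap in either, and the log2 changes were 1.73 ± 0.17 (SE, adjusted p = 1.16e-05) and 0.34 ± 0.11 (SE, adjusted p = 0.0194). Ttn, which encodes titin, had log2 changes of 1.59 ± 0.18 (SE, adjusted p = 4.7e-05) in cerebellum and 0.38 ± 0.08 (SE, adjusted p = 0.00233) in testes.

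Across the pathway lists, cytosolic ribosomal proteins, which build the ribosome with its RNA, differed in one direction. Of 78 tested, 33 had a negative difference (42.3%, against 8.83% of all genes) and 0 a positive one. With neighbouring libraries summed, 0 of them passed in limma or edgeR after adjustment, and 33 had an unadjusted p under 0.05 in limma. In KO testes 29 fell (37.2%, against 18.6% of all genes) and 1 rose (Rpl14), and in KO cerebellum 3 rose (3.85%, against 1.55% of all genes) and 0 fell. Estimates were above 0 in cerebellum for 76 and below 0 in testes for 67, with medians of 0.15, -0.14 and -0.28 for the difference. Rpl8 was the 1 member called in opposite directions, at 94.0, 93.97, 86.6 and 87.9 in WT and 107, 106, 113 and 111 in KO in cerebellum and 239, 257, 246 and 259.9 in WT and 234, 229, 225 and 203 in KO in testes, and its difference was -0.44 ± 0.07 (SE, adjusted p = 0.000742). The difference of Rpl8 ran from -0.47 to -0.19 over 31 alternatives and lost its call in 2 of them. The median difference stayed negative under 31 alternatives, from -0.33 to -0.13, but the testes median was -0.00 without testes KO 7 and KO 8, and 16 members passed after trends with GC content and length were removed. Reads of ribosomal protein genes can be shared with their many pseudogenes, so single members are uncertain.

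Nuclear genes of oxidative phosphorylation had the same form, with 17 of 74 differences negative (23.0%) and 0 positive. In testes 30 fell (40.5%) and 1 rose. With neighbours summed, 0 differences passed in limma or edgeR (18 unadjusted in limma). The medians were 0.04 in cerebellum, -0.17 in testes and -0.20 for the difference, which moved to -0.08 with GC and length trends removed. Ndufv1, the flavoprotein subunit of complex I, had log2 changes of 0.25 ± 0.05 (SE, adjusted p = 0.0105) in cerebellum and -0.12 ± 0.05 (SE, adjusted p = 0.055) in testes. Proteasome subunits lay near the shares of all genes, with 5 of 38 differences negative (13.2%, against 8.83%) and 8 members lower in testes (21.1%, against 18.6%). Cholesterol synthesis genes had 3 negative (13.0%) and 2 positive (8.70%) differences among 23, near the 8.83% and 10.6% of all genes. In testes 10 fell (43.5%, against 18.6%) and 2 rose (8.70%, against 16.9%). Fdps, which makes farnesyl pyrophosphate, had log2 changes of 0.11 ± 0.08 (SE, adjusted p = 0.542) in cerebellum and -0.47 ± 0.05 (SE, adjusted p = 8.41e-06) in testes.

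Over all genes 10.6% of differences were positive. Of 28 apoptosis genes 8 had a positive (28.6%) and 1 a negative difference. The anti-apoptotic gene Bcl2l2 had log2 changes of -0.03 ± 0.05 (SE, adjusted p = 0.824) in cerebellum and 0.42 ± 0.05 (SE, adjusted p = 3.27e-05) in testes, and Xiap, an inhibitor of caspases, had -0.15 ± 0.05 (SE, adjusted p = 0.138) and 0.32 ± 0.07 (SE, adjusted p = 0.00288). The 1 negative member was Bid, a pro-apoptotic link between death receptors and mitochondria, at -0.81 ± 0.20 (SE, adjusted p = 0.00922), named after its values were seen. Of 17 p53 targets 4 were positive (23.5%) and 1, Polk, was negative. Endoplasmic reticulum chaperones and folding genes had 4 positive (17.4%) and 0 negative differences among 23. The chaperone Hspa5 had log2 changes of -0.25 ± 0.07 (SE, adjusted p = 0.0488) in cerebellum and 0.10 ± 0.06 (SE, adjusted p = 0.177) in testes. Circadian clock genes had 3 positive (15.8%) and 0 negative among 19, with the repressor Nr1d2 at -0.31 ± 0.05 (SE, adjusted p = 0.00151) in cerebellum and 0.16 ± 0.06 (SE, adjusted p = 0.0597) in testes.

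Collagen and matrix genes rose in KO testes for 15 of 30 (50%, against 16.9% of all genes) and fell for 0, and 3 differences were positive (10%, against 10.6%). Their median difference of 0.18 turned to -0.07 without testes KO 7 and KO 8 and to -0.01 with sample quality weights. Axoneme genes had a median of -0.18 in each tissue, 13 of 37 fell in testes (35.1%, against 18.6%), and 1 difference was positive and 2 were negative. Without the 4 cerebellum libraries that held choroid plexus RNA, their cerebellum median was 0.29 and their median difference went from 0.02 to -0.34, and it had the other sign in 9 of 31 alternatives. The choroid plexus marker sums of these libraries are given above. Hydin, a protein of the central pair of cilia, had log2 changes of 0.53 ± 0.12 (SE, adjusted p = 0.0227) in cerebellum and -0.06 ± 0.05 (SE, adjusted p = 0.344) in testes. Among 56 genes of tRNA modification, 4 differences were positive (7.14%, against 10.6% of all genes) and 8 negative (14.3%, against 8.83%). Trmt6, part of the m1A methyltransferase, had log2 changes of -0.18 ± 0.07 (SE, adjusted p = 0.167) in cerebellum and 0.37 ± 0.07 (SE, adjusted p = 0.00108) in testes. Trmt1, which makes dimethylguanosine, had log2 changes of 0.18 ± 0.05 (SE, adjusted p = 0.0846) in cerebellum and -0.21 ± 0.04 (SE, adjusted p = 0.00113) in testes. Of 15 genes of eIF2, its exchange factor, kinases and regulators, 2 were positive and 2 negative (13.3% each). NF-kB genes had 2 positive (10%) and 3 negative (15%) among 20, heat shock genes 2 (8.70%) and 1 (4.35%) among 23, and interferon response genes 0 and 0 among 17 (2 at an unadjusted p under 0.05 with neighbours summed), beside 10.6% positive and 8.83% negative over all genes. With neighbouring libraries summed, 0 differences passed in limma in 15 of the 19 pathway lists, the exceptions being ISR, immediate early, axoneme and THUMP domain genes, the last through Thumpd1. In those 15 lists 2 to 33 members had an unadjusted p under 0.05, and edgeR called 1 member each of the synthetase, NF-kB and cholesterol lists.

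**Figure D4:**
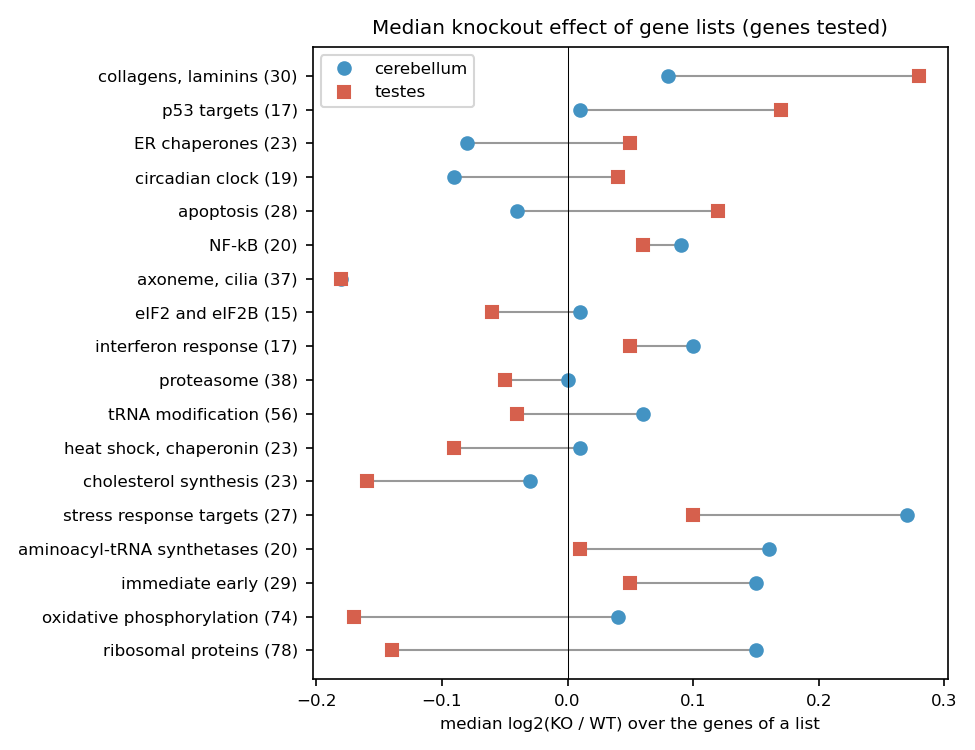
Median log2 change between KO and WT of the tested members of a pathway list, in cerebellum and in testes, with the number of tested genes in brackets. The medians over all 13753 tested genes are -0.00 and 0.01. Ribosomal proteins lie at 0.15 in cerebellum and -0.14 in testes, and the ISR genes at 0.27 and 0.10.

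The differences also followed the base composition of the transcripts. Across tested genes, which are not independent replicates, the Spearman correlation of the knockout effect with GC content was 0.44 in cerebellum, -0.15 in testes and -0.34 for the difference. In the bin of 1376 genes with the lowest GC content (median 38.9%) the median effect was -0.13 in cerebellum and 0.07 in testes, and in the bin with the highest (59.6%) it was 0.07 and -0.06. With length the correlations were -0.13, 0.20 and 0.23. The 45 genes that fell in cerebellum and rose in testes had a median GC content of 42.2% and a median longest transcript of 6436 bases, the 41 with the reverse pattern 56.5% and 3078 bases, and all tested genes 49.2% and 3459 bases. Single libraries carried such trends as well, with correlations of a library's deviation with GC content from -0.28 (WT 4) to 0.36 (KO 7) in cerebellum and from -0.44 (KO 5) to 0.34 (WT 2) in testes. After the trends were removed from every library, 2774 genes differed, 1721 of them shared with the 2676, and 66 had opposite effects, 35 of them shared with the 86. Of those 66, 20 rose in testes and 46 fell.

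**Figure D5:**
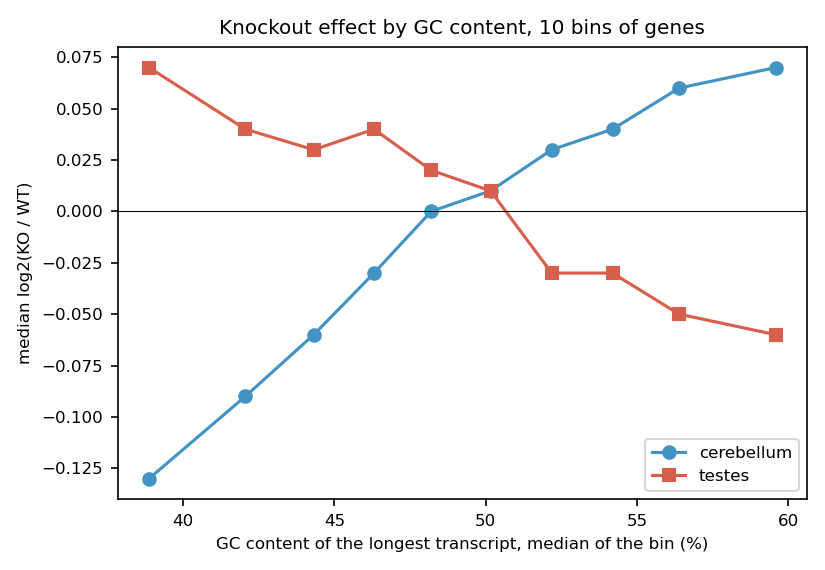
Median log2 change between KO and WT in cerebellum and testes for the tested genes in 10 bins of equal size by GC content. The cerebellum medians climb from -0.13 in the lowest bin to 0.07 in the highest, and the testes medians descend from 0.07 to -0.06.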

How the data were processed

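Per the labels and the methods, tissues were stored in RNAlater, and RNA extracted with Trizol went through a stranded total RNA kit with Ribo-Zero Plus and was read as paired ends on an Illumina NovaSeq. The authors aligned reads with STAR to mm10 and made the deposited expected counts per gene with RSEM and GENCODE M21; the tool versions and the strand setting of counting are not given in the sources used here. Named genes that share exon positions with an opposite-strand gene are therefore uncertain: Top2b, Necab3, Baiap3, Padi2, Kcnk3, Ttn, Atf5, Eif2b4, Cars, Aars, Ddb2, Ptpre, Nfkbib, Hsp90b1, Hspd1, Tcp1, Ndufa13, Ndufs6, Nr1d1, Dnah11, Hydin, Psph, Ddit3, Yars, mt-Nd5 and Bid.

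Groups came from the labels. Genes with at least 1 CPM in at least 4 of the 8 libraries of each tissue were scaled with TMM factors (edgeR 4.0.16), and voom and limma 3.58.1 (R 4.3.3) were fitted over the 16 libraries as 4 groups, with the difference of the tissue effects as contrast and a Benjamini-Hochberg threshold of 0.05 over all genes. Printed CPM were computed on the counts of the tested genes with TMM scaling, except the marker sums, Fos and Camk2a, which use the total count of the library. The edgeR and DESeq2 1.42.0 alternatives used rounded counts. Marker sums were compared by exact permutation (scipy 1.17.1). Figures were drawn with matplotlib 3.10.9.

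The members and lists were chosen with earlier results of these data known. The naming rule took Thumpd1, Nat10, Atf4 and Asns. It then took genes whose difference passed, with a mean log2 CPM of at least 1 in each tissue, no overlap of groups in a tissue whose effect passed, and no predicted-gene or clone name. Of these, the 5 with the lowest p in each direction of opposite effects, the 4 largest rises and 3 largest falls in each single tissue and the 2 largest differences per tissue among same-direction genes were named. Up to 3 members of each pathway list whose difference passed, with the lowest p, were also named, without the filters on level and overlap. A few genes were named outside it and 1 that it picks is not reported here, which gave 94. Cyr61, Ctgf and Ikbkap are not in the table under those symbols. Depth is given with the results, and intervals cover counting error only.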

Additional observations from a re-analysis of the deposited data

Results flagged for a closer look

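The knockout effect in testes differed from that in cerebellum, by limma's test of the difference itself, for 93 of the genes named in the text. A value is the testes change minus the cerebellum change on the log2 scale. Log2 differences that were positive included Thumpd1 at 3.47, Xlr3b at 2.37, Lrrn1 at 1.19, Padi2 at 1.17, Kcnk3 at 1.01, Eif2s3y at 0.92, Slitrk5 at 0.88, mt-Nd2 at 0.81 and Col11a1 at 0.76. Smaller ones were mt-Nd5 at 0.70, mt-Rnr2 at 0.69, Dnah11 at 0.63, mt-Nd4 at 0.62, Twsg1 at 0.61, Utrn at 0.60, Trmt6 at 0.55, Top2b at 0.54 and Mir124-2hg at 0.53. Then came Dusp16 at 0.51, Ptpre at 0.50, Xiap at 0.48, Nr1d2 at 0.47, Bcl2l2 at 0.45, Rlim at 0.43, Col4a5 at 0.41, Ddb2 at 0.40 and Hspd1 at 0.39. Further down were Stard4 at 0.39, Trp53inp1 at 0.38, Impact at 0.37, Slc38a2 at 0.37, Ndn at 0.36, Clock at 0.36, Sparc at 0.35, Hspa5 at 0.35 and Eif2b3 at 0.33. At the lower end were Nr1d1 at 0.32, Hsp90b1 at 0.27, Dnajc3 at 0.26 and Hsp90ab1 at 0.22.

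Log2 differences that were negative included Egr3 at -3.80, Nrgn at -3.70, Fosb at -2.79, Ndst4 at -2.33, Lhx9 at -2.31, Camkv at -2.24, Kcnip2 at -2.08, Baiap3 at -1.92 and Chac1 at -1.80. Smaller ones were Tekt5 at -1.44, Enc1 at -1.39, Necab3 at -1.33, Rundc3a at -1.26, Ttn at -1.21, Rasal1 at -1.17, Slc38a1 at -1.13, Chst2 at -1.05 and Ncan at -0.86. Then came Asns at -0.81, Bid at -0.81, Cdk5rap1 at -0.74, Atf5 at -0.73, Mthfd2 at -0.73, Ddit3 at -0.70, Psph at -0.68, Jag1 at -0.65 and Hydin at -0.60. Further down were Arc at -0.59, Fdps at -0.59, Ndufs6 at -0.54, Herpud1 at -0.52, Mvk at -0.50, Ndufa13 at -0.49, Rpl13 at -0.47, Cars at -0.47 and Rpl37a at -0.45. At the lower end were Rpl8 at -0.44, Vars at -0.42, Psmd8 at -0.42, Polk at -0.40, Trmt1 at -0.39, Nfkbib at -0.38, Ndufv1 at -0.37, Psmb6 at -0.36 and Aars at -0.36. After these were Atf4 at -0.35, Eif2b4 at -0.32, Yars at -0.31, Tcp1 at -0.30, Wars at -0.30, Sars at -0.26, Bri3bp at -0.20 and Psme3 at -0.19.

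A single library stood apart from the other 3 of its group for 23 of 376 combinations of a named gene and a group, where chance sets about 1 in 20 groups apart. Values are CPM. In cerebellum the library was the highest of its group for Thumpd1 at 25.3 in WT 4, Col11a1 at 3.95 in WT 1 and Jag1 at 8.696 in WT 3. In cerebellum the library was the lowest of its group for Rlim at 112 in WT 2, Camkv at 2.31 in WT 4 and Col4a5 at 8.67 in KO 5. In testes the library was the highest of its group for Camkv at 7.35 in KO 8, Padi2 at 6.397 in WT 2, Slc38a1 at 6.799 in KO 7, Atf5 at 26.2 in WT 1, Cars at 38.99 in WT 3, Wars at 49.9 in WT 2, Trp53inp1 at 53.5 in KO 5, Xiap at 21.9 in WT 1, Hsp90ab1 at 284 in WT 2 and mt-Nd2 at 277 in WT 1. In testes the library was the lowest of its group for Rlim at 119 in KO 8, Necab3 at 15.6 in KO 7, Col11a1 at 1.27 in WT 3, Cars at 35.9 in KO 8, Hsp90b1 at 555 in WT 2, Tekt5 at 184 in WT 1 and Kcnip2 at 9.503 in KO 7.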

How the results depend on the processing

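The counts of genes that differed, of genes with opposite effects, and of genes called in testes and in cerebellum were 2676, 86, 4875 and 367. Over 31 alternatives, which refit the libraries the genes were picked from, the difference of 0 of 94 named genes changed sign. Of 2886 such values 317 lost the call, 2 gained it (both for Nat10), and 25 genes kept it wherever they were tested. DESeq2 gave 151 genes with opposite effects and 587 in cerebellum. Without a filter on low counts 1723 genes differed, 1252 positive and 471 negative. All 24 libraries in 1 fit gave 35 opposite genes and 215 in cerebellum. Sample quality weights gave 4216, 479 and, in cerebellum, 1784. With cerebellum WT 1, WT 2, KO 7 and KO 8 left out the counts were 756, 22 and, in cerebellum, 104. With testes KO 7 and KO 8 left out, 191 genes were opposite, 3114 were called in testes and 1142 in cerebellum. With neighbouring libraries summed the 4 counts were 132, 0, 1588 and 12, with fewer samples. Those 3 settings, the TMM factors from all genes of a tissue and the removal of GC and length trends were chosen after seeing the data.

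Leaving out 1 library at a time, the difference count ran from 1899 (without testes WT 3) to 3098 (without testes KO 5), the opposite count from 21 (without cerebellum KO 5) to 143 (without cerebellum KO 6), the testes count from 3412 (without testes KO 7) to 5414 (without testes KO 5) and the cerebellum count from 129 (without cerebellum KO 5) to 523 (without testes KO 7). The opposite count fell below 60 also without cerebellum WT 1 (29), WT 3 (34) or WT 4 (26), cerebellum KO 7 (27) or KO 8 (39), or testes WT 3 (50) or WT 4 (47). The causes of these shifts were not tested.

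Libraries were not treated as paired across tissues by number: the labels use the same numbers in each tissue without saying what a number marks, deviations of libraries with the same number in both tissues correlated at -0.10 to 0.16, and 1 of 8 correlated best with its own number. A fit with the replicate block called 2622 differences. With 4 libraries a group, the median standard error of the log2 difference was 0.13. A difference that passed was a few times its own standard error. Differences near 0.13, and many somewhat above it, were therefore mostly not detectable at this depth.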

Other observations

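Genes called in neither tissue alone made up 323 of the 2676 differences. Among them Eif2b3, a subunit of the eIF2 exchange factor, had log2 changes of -0.21 in cerebellum and 0.12 in testes, with a difference of 0.33 ± 0.10 (SE, adjusted p = 0.0271 in limma). Exons of 25 of the 86 genes with opposite effects overlapped a gene on the other strand, beside 31.0% of all tested genes. Knockout effects in the 2 tissues had a Pearson correlation of 0.01 across the 13753 tested genes, which are not independent replicates.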
